A study of Homo sapiens with 8 samples.

Results

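The LPS response of epirubicin-treated macrophages was read from 4 of the 8 arrays of the series, 2 titled with epirubicin and LPS and 2 titled with epirubicin and no LPS, and is described across all genes on the array. THP-1 cells, a line grown from a human monocytic leukaemia, had been turned into macrophage-like cells with PMA at 100 ng/mL overnight. Both groups then received epirubicin at 0.25 µg/mL for 24 h, and the epirubicin with LPS group received in addition LPS at 100 ng/mL for 3 h. The remaining 4 arrays, 2 with LPS and 2 untreated, carry the same PMA treatment without epirubicin and serve here for the comparison of the LPS response with and without the drug. Because every cell came from 1 leukaemia line and from PMA, the arrays model macrophages and are not primary cells. The sources do not say whether the 2 arrays of a condition came from separate cultures, so p-values refer to the spread among these duplicates and may reflect technical error alone.

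Each array gave 1 log2 level per probe set, so that a difference of 1 is a 2-fold change, and 20893 gene probe sets were tested, which represent 17749 named genes. Array means lay between 6.73 and 6.76 and duplicates correlated at 0.986 to 0.987 across probe sets, with 1372 to 1709 probe sets more than 2-fold apart between the duplicates of a condition. Of 10 macrophage markers, 2 were called lower under LPS (CSF1R and CD14, of which CSF1R lost its call without any 1 of the 4 arrays with epirubicin) and none higher. CD68, a lysosomal membrane protein, averaged 16.13 with epirubicin and LPS against 16.18 with epirubicin, and LYZ, lysozyme, averaged 15.59 against 15.21. However, 3 of the 10 macrophage markers, MARCO and FCGR3A among them, lay under 4.81 in both groups, the 95th percentile of 350 olfactory receptor probe sets. That level is called near background below, since macrophages are not known to use olfactory receptors. Markers of myeloblasts or undifferentiated THP-1 cells were mostly above it: 1 of 7 measured was near background in both groups. In that list 1 marker was called lower and none higher, and the lower call depended on single arrays. Of the measured markers of other cell types, 4 of 6 epithelial ones (EPCAM among them), 4 of 5 lymphocyte ones (CD3D, CD3E, CD2 and MS4A1) and 1 of 5 fibroblast ones were near background in both groups, and none of these markers was called in either direction. The exception among lymphocyte markers, the B cell receptor subunit CD79A, had 8.19 and 8.46 with epirubicin and LPS against 7.09 and 7.54 with epirubicin (1.01, adjusted p = 0.0848), and its adjusted p was 0.0474 with quantile normalization and 0.0428 with a filter on low levels.

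LPS, the outer membrane glycolipid of Gram-negative bacteria, is bound by CD14 and by the complex of TLR4 and MD-2 on macrophages. Through the adaptors MyD88 and TRIF the receptor activates NFκB, the MAP kinases and interferon regulatory factors, which first raise transcription factors, chemokines and cytokines and soon afterwards the inhibitors that shut the signal down. Secreted type I interferon then induces a later group of antiviral genes, and macrophages are known to lose part of their resting programme at the same time. Epirubicin is an anthracycline that intercalates into DNA and traps topoisomerase II. The comparison asks how this response runs in cells that had met the drug first.

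A probe set was called higher or lower where the p from limma, adjusted by the Benjamini-Hochberg method over all 20893 probe sets, did not exceed 0.05 and the change was at least 2-fold. In epirubicin-treated cells LPS raised 1069 probe sets (5.12%) and lowered 1243 (5.95%), together 11.1% of those tested. The rises were the larger: 147 of them reached 16-fold and 40 reached 64-fold, against 22 and 1 of the falls. The median change was 1.86 among probe sets called higher and −1.55 among those called lower. In 177 of the 1069 rises the epirubicin level was near background, and in 136 of the 1243 falls the epirubicin with LPS level was, so that the size of these changes is limited by the background of the array. The arrays of the groups did not overlap in any called probe set, which also holds for 52.4% of all probe sets tested. When each of the 8 arrays was left out in turn, 604 rises and 455 falls kept their call every time. The falls numbered 673 without epirubicin duplicate 1, 679 without epirubicin duplicate 2, 789 without epirubicin with LPS duplicate 1 and 774 without its duplicate 2.

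**Figure D1:**
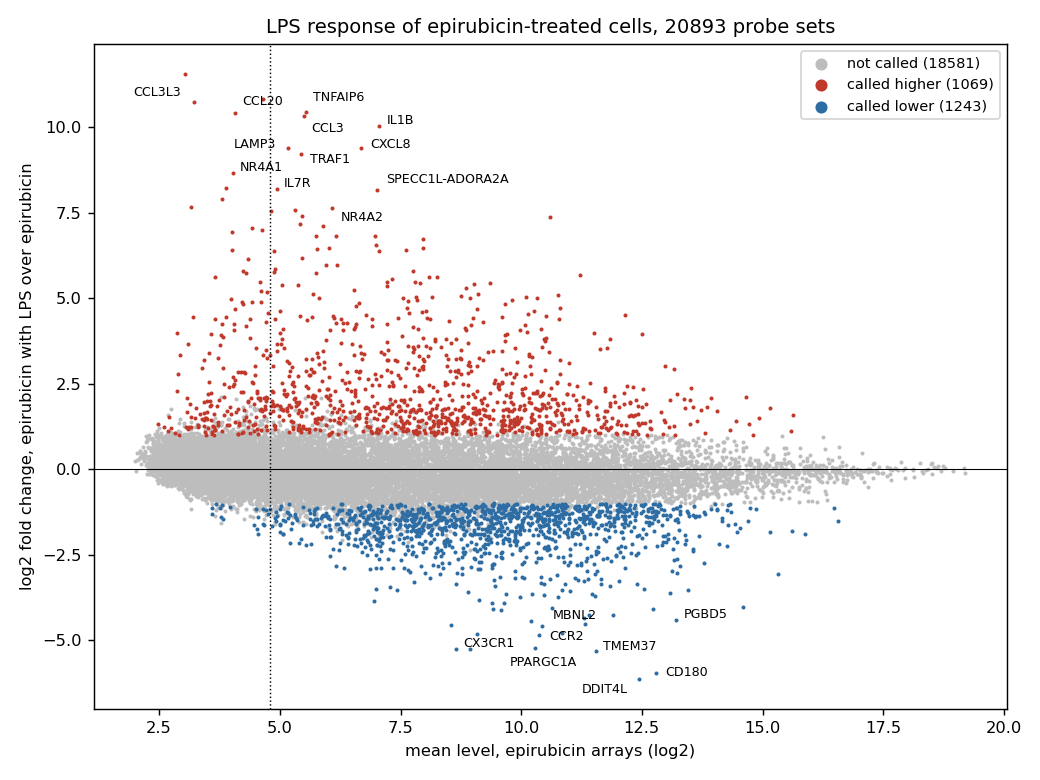
LPS response of epirubicin-treated cells: log2 fold change of epirubicin with LPS over epirubicin (y axis) against the mean log2 level on the epirubicin arrays (x axis), 1 point per probe set, with the near-background level of 4.81 as a dotted line. Rises (red, 1069) reach 11.55, with 177 starting near background, and falls (blue, 1243) reach −6.12.

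The largest rises with a level of at least 6 after LPS were those of secreted inflammatory mediators. CCL20, a chemokine for dendritic cells and lymphocytes, stood at 14.45 and 14.55 on the epirubicin with LPS arrays and at 3.37 and 4.77 on the epirubicin arrays, a log2 change of 10.43 ± 0.43 (SE, adjusted p = 5.73e-06). IL1B, the precursor of interleukin-1β, had 17.20 and 17 against 6.95 and 7.16 and changed by 10.05 ± 0.26 (adjusted p = 1.28e-06). TNFAIP6, a hyaluronan-binding protein secreted in inflammation, had 15.97 and 15.995 against 5.97 and 5.10, a change of 10.45. In all 3 genes the lowest epirubicin with LPS array lay more than 9 log2 units above the highest epirubicin array. CCL3L3 and CCL3, near-identical chemokine genes whose probes may share signal, rose by 10.75 and 10.34, and 2 probe sets without a single gene name changed by 11.55 and 10.83. The other 10 of the 15 named rises were LAMP3, a lysosomal membrane protein of mature dendritic cells (9.40), the neutrophil chemokines CXCL8 (9.38) and CXCL1 (7.67), the adaptor TRAF1 (9.21), the nuclear receptors NR4A1 (8.67), NR4A3 (8.23) and NR4A2 (7.64), the interleukin-7 receptor IL7R (8.20), the costimulatory ligand CD80 (7.91) and the readthrough gene SPECC1L-ADORA2A (8.16). The last overlaps ADORA2A, an adenosine receptor, whose own probe set rose by 6.83.

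The 15 largest falls were led by DDIT4L, an inhibitor of mTOR signalling, at 6.17 and 6.49 with epirubicin and LPS against 12.56 and 12.34 with epirubicin, a log2 change of −6.12 ± 0.24 (adjusted p = 4.75e-06). CD180, a TLR4-like receptor that restrains the LPS response, had 7.13 and 6.54 against 12.73 and 12.85 (−5.95, adjusted p = 9.15e-06). CX3CR1, the fractalkine receptor, had 3.28 and 3.54 against 8.85 and 8.47 (−5.25, adjusted p = 1.85e-05), which puts it near background after LPS. The chemokine receptors CCR2 and CXCR2 fell by 4.84 and 4.81 on the log2 scale, the purinergic family receptor GPR34 by 5.26 and the transcriptional coactivator PPARGC1A, known for mitochondrial biogenesis, by 5.23. The others were TMEM37 (−5.33), RHOBTB2 (−4.78), the splicing regulator MBNL2 (−4.58), the motilin receptor MLNR (−4.55), the inward-rectifier potassium channel KCNJ2 (−4.51), FAM117B (−4.43), PGBD5 (−4.40) and TBC1D2 (−4.34). All 30 rises and falls kept an adjusted p of at most 0.05 whichever of the 8 arrays was left out, with 0.0045 as the highest.

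**Figure D2:**
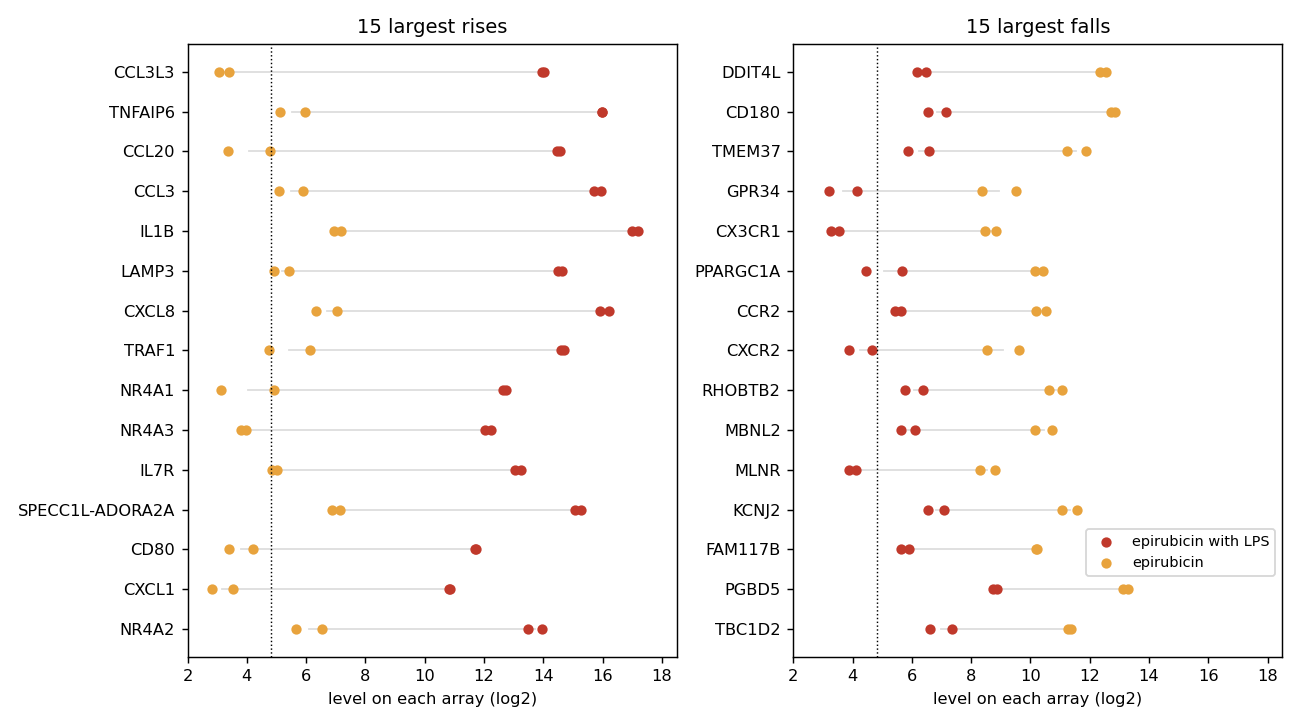
Log2 level on each array (x axis) of the 15 largest rises (left panel) and the 15 largest falls (right panel) under LPS in epirubicin-treated cells, with epirubicin with LPS in red and epirubicin in orange, 2 arrays each, and the near-background level as a dotted line. In every gene the 2 groups are far apart, and 6 of the rises and 4 of the falls have the mean of their lower group under the dotted line.

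Chemokine ligands split into strongly induced members and a majority that was not called. Of 20 CXC chemokines measured, 7 were called higher and none lower, and of 21 CC chemokines 5 and none, where 5.45% of all 17749 genes were called higher and 6.38% lower. CXCL8, which attracts neutrophils, had 15.91 and 16.23 against 7.05 and 6.32, and CXCL3, of the same cluster, 10.84 and 11.06 against 3.79 and 4.22 (6.94, adjusted p = 6.87e-06). CXCL2 rose by 4.24 with a wide error of 0.64, since its epirubicin arrays read 7.72 and 5.42. CXCL10, an interferon-inducible chemokine for T cells, had 6.68 and 6.88 against 3.52 and 4.14 (2.95, adjusted p = 0.000696). CCL5, a chemokine for T cells and monocytes, had 17.01 and 16.86 against 15.17 and 15.14 (1.78, adjusted p = 0.00137), a small gap between groups that did not overlap. The medians of the lists, 0.56 for CXC and 0.42 for CC chemokines against −0.04 for all genes, show that most members moved little, and 8 and 4 of them were near background in both groups.

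Promoters of the induced genes were searched for a loose NFκB site, GGGA and CC with any 4 bases between them, on either strand, in a window from 250 bases before to 50 bases after the gene's start (RefSeq, GRCh38.p14). The site was in 262 of 784 matched promoters of genes called higher (33.4%), 41 of 114 of those up at least 16-fold (36.0%), 273 of 934 of genes called lower (29.2%), 29.3% of 14280 measured genes with a promoter and 25.1% of all 27305 promoters in the table. Thus the letters alone are common, and a match is a description of the sequence and not of binding. The upstream 250 bases of the 3 genes with the largest rise that hold it are shown to let the sites be seen beside these folds, each written along the plus strand with the matches in capitals. CCL20 holds 3 matches, of which the first and the third are the reverse complement of the pattern, and CXCL8 and IL7R hold 1 each. The capitals mark matches to this pattern only. A site that NFκB uses but that departs from the pattern stays in lower case, and a match need not be a used site.
CCL20, chr2:227813592-227813841, plus strand: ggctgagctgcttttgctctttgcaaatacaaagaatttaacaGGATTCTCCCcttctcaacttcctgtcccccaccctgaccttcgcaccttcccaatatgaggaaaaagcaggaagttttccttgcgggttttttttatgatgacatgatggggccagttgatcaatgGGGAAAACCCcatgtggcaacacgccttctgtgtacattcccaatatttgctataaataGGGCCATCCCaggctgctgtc
CXCL8, chr4:73740319-73740568, plus strand: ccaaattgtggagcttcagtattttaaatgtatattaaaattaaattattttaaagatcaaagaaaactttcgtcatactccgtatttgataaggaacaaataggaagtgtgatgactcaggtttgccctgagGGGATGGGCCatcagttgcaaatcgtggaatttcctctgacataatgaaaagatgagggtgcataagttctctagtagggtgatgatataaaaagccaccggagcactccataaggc
IL7R, chr5:35856641-35856890, plus strand: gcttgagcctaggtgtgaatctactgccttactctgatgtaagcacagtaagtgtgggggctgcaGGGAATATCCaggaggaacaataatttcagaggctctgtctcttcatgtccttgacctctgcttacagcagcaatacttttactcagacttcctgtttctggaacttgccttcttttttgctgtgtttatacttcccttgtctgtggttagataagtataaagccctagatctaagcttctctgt

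Among cytokines, LPS raised 6 of 19 measured members of the interleukin-1 family and its receptors, 4 of 19 of the IL-6, IL-10 and IL-12 families and 4 of 16 TNF superfamily ligands, and 1 such ligand was called lower. The shares over all genes were 5.45% higher and 6.38% lower. TNF had 10.63 and 10.42 with epirubicin and LPS against 5.90 and 6.32 with epirubicin (4.41 ± 0.40, adjusted p = 0.000264). IL1RN, the natural antagonist of interleukin-1, had 12.29 and 12.21 against 8.22 and 7.12 (4.58, adjusted p = 0.000282). IL23A, the p19 subunit of interleukin-23, and EBI3, a subunit of interleukin-27, rose by 7.16 and 4.61. The groups of arrays were far apart in each of these genes. The anti-inflammatory IL10 had 7.58 and 8.40 against 4.67 and 4.63 (3.34, adjusted p = 0.00178), and OSM, oncostatin M, rose by 4.09. IL6 was not called: its epirubicin with LPS arrays read 4.27 and 5.96, on both sides of the near-background level, and its epirubicin arrays 3.98 and 3.55 (adjusted p = 0.142). CD70 and TNFSF15, ligands that costimulate T cells, rose by 5.76 and 2.54. CSF1, the macrophage growth factor, rose by 2.95. None of 22 type I and III interferon genes was called, 16 of them were near background in both groups, and IFNB1 had 4.38 and 4.14 against 3.71 and 3.35.

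Receptors moved in both directions. Of 21 chemokine and chemoattractant receptors, 6 were called higher and 4 lower, where 5.45% of all genes were called higher and 6.38% lower. CCR7, which guides cells to lymph nodes, had 12.85 and 12.93 with epirubicin and LPS against 5.39 and 5.23 with epirubicin (7.58, adjusted p = 2.28e-06). CCR1 fell to 9.29 and 9.11, against 11.88 and 11.69 (−2.58, adjusted p = 0.000643), beside the falls of CCR2, CXCR2 and CX3CR1. Among 23 TNF receptors and TRAF adaptors, 9 were called higher and none lower: CD40 had 14.66 and 14.19 against 7.92 and 8.01 (6.47) and TNFRSF9, 4-1BB, 15.94 and 15.78 against 10.64 and 10.89 (5.09). Of 29 receptors for purines, lysophospholipids and related metabolites, 8 were called higher and 6 lower, and 3 were called lower without epirubicin with LPS duplicate 1.

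The LPS receptor itself was lower after LPS. TLR4 had 9.11 and 9.37 with epirubicin and LPS against 10.91 and 11.21 with epirubicin (−1.82 ± 0.24, adjusted p = 0.00198), and its co-receptor CD14 had 11.04 and 11.08 against 13.99 and 13.60 (−2.73, adjusted p = 0.000296). The arrays measure mRNA of all cells of a well together, so fewer cells with a gene and less of its mRNA per cell cannot be told apart. MYD88, the adaptor of most TLRs, had 11.30 and 11.46 against 10.43 and 10.56 and was not called (adjusted p = 0.0525). Downstream, the kinases IRAK2 and MAP3K8 rose by 6.40 and 4.08, although IRAK2 read 2.92 and 5.10 on the epirubicin arrays, a wide spread. Among all genes 5.45% were called higher and 6.38% lower. Altogether 4 of 21 members of the receptor complex and its adaptors were called higher and 3 lower, with 2 called higher without epirubicin duplicate 2 and 2 without epirubicin with LPS duplicate 2.

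Of the 64 gene lists, NFκB genes had the highest median. Of 10 measured subunits and inhibitors, 8 were called higher and none lower, with a median change of 4.01, and 8 were called higher whichever array was left out. REL had 15.46 and 15.19 against 10.11 and 10.53 (5.01, adjusted p = 1.15e-05), NFKB2 14.63 and 14.88 against 9.63 and 10.002 (4.94) and NFKBIA, the inhibitor IκBα, 15.60 and 15.43 against 10.86 and 10.73 (4.72). NFKB1, NFKBIZ and RELB rose by 4.43, 3.53 and 3.59. The subunit RELA, which is regulated mainly by its release from the inhibitor, had 12.09 and 11.94 against 11.59 and 11.30 and was not called (adjusted p = 0.171). The same NFκB letters stood in the promoter of 7 of the 8 list members with a promoter in the table (87.5%). That share describes the list and not the LPS response. Of 23 inducible brakes 8 were called higher and 3 lower, with a median of −0.08, against 5.45% and 6.38% of all genes. The rises included TNFAIP3, the deubiquitinase A20 (5.69), the ubiquitin ligase PELI1 (5.61), SOCS3, a brake on cytokine receptors (5.46), and ZFP36, which destabilizes cytokine mRNA (2.80).

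Among all genes 5.45% were called higher and 6.38% lower. Of 23 EGR, IER, NR4A and MYC network genes, 15 were called higher and 1 lower, and of 15 AP-1 and ATF factors 7 and 1. Neither lower call held without epirubicin duplicate 1 or duplicate 2, the first also not without epirubicin with LPS duplicate 2, and the second not without its duplicate 1 or either untreated array. NR4A1, an orphan nuclear receptor, had 12.64 and 12.75 with epirubicin and LPS against 4.90 and 3.14 with epirubicin, and EGR1 had 11.60 and 11.39 against 6.72 and 6.54 (4.87, adjusted p = 1.28e-05). FOSB rose by 7.41, ATF3 by 4.59 and FOS by 2.89. Among phosphatases that switch off MAP kinases, DUSP1 had 14.65 and 14.74 against 7.88 and 8.05 (6.73), and DUSP5 and DUSP2 rose by 7.12 and 6.83. SPRY2, an inhibitor of receptor tyrosine kinase signalling, ran the other way, with 7.60 and 8.03 against 11.52 and 11.43 (−3.66, adjusted p = 0.000157).

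Interferon-stimulated genes rose although no interferon gene was called. Among all genes 5.45% were called higher and 6.38% lower. Of 48 measured effector genes, 19 were called higher and 4 lower, with a median change of 0.65, and 16 to 18 were called higher when 1 array was left out. OASL had 11.96 and 12.45 against 6.20 and 5.34 (6.44, adjusted p = 1.42e-05). IFIT1, which binds foreign RNA caps, had 8.80 and 9.39 against 4.55 and 3.88 (4.88, adjusted p = 6.89e-05), and IFIT3, its partner, 11.04 and 11.47 against 7.94 and 7.37 (3.602, adjusted p = 0.000307). The cytosolic RNA sensors RIGI and IFIH1 rose by 3.33 and 2.78, while the DNA sensing adaptor STING1 fell by 1.97 on the log2 scale. The guanylate-binding proteins GBP1 and GBP2, GTPases that attack intracellular pathogens, had 12.86 and 12.69 against 7.45 and 8.23 (4.94) and 14.53 and 14.38 against 8.71 and 9.34 (5.43), and 5 of 8 members of the family were called higher.

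The interferon-stimulated response element, searched as above as GAAA and GAAA with any 2 bases between them, stood in 25 of 37 promoters of the effector list (67.6%), against 3.10% of 14280 measured genes, 4.08% of genes called higher and 2.36% of genes called lower. The effector list holds known interferon-stimulated genes, so its share describes the list and not the LPS response. The upstream 250 bases of IFIT1 and IFIT3, the effectors with the largest rise among those that hold it, are given with their matches in capitals, 2 in each, as the reverse complement on the plus strand. Both genes lie in the IFIT cluster on chromosome 10.
IFIT1, chr10:89392373-89392622, plus strand: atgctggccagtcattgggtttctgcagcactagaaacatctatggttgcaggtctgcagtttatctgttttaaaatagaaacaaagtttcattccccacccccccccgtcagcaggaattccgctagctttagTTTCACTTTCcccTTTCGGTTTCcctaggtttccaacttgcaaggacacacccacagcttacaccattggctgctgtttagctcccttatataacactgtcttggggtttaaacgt
IFIT3, chr10:89327747-89327996, plus strand: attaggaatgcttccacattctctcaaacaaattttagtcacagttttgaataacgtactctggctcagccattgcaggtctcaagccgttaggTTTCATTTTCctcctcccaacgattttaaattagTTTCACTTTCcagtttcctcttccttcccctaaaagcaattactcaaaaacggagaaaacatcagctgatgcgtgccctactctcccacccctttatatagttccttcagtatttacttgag

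Of 11 other Toll-like receptors and their chaperones, 2 were called lower and none higher, where 6.38% of all genes were called lower and 5.45% higher. TLR6, which pairs with TLR2, had 9.79 and 10.10 with epirubicin and LPS against 11.50 and 11.46 with epirubicin (−1.54, adjusted p = 0.00465), while the other call, UNC93B1, was lost without any 1 of the 4 arrays with epirubicin (adjusted p of up to 0.0829). TLR2 itself, the lipoprotein receptor, read 6.61 and 7.59 against 6.61 and 6.58 and was not called. Of 21 JAK, STAT and SOCS genes 6 were called higher and none lower, with STAT4, a mediator of interleukin-12 signals, at 10.01 and 9.87 against 5.38 and 5.76 (4.37, adjusted p = 9.12e-05) and STAT5A up by 3.96. Among 13 Kruppel-like factors 4 were called higher and none lower, led by KLF5 (4.48), KLF2 (2.87), known to restrain macrophage activation, and KLF10 (2.17).

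Genes of dendritic maturation and costimulation rose in large part: 11 of 21 were called higher and 2 lower, with a median of 2.24, and 11 were called higher whichever array was left out. LAMP3 had 14.64 and 14.49 with epirubicin and LPS against 5.41 and 4.93 with epirubicin, and CD80 had 11.71 and 11.71 against 3.40 and 4.21. FSCN1, fascin, an actin bundler of dendritic cell processes, had 16.79 and 16.52 against 12.15 and 12.15 (4.51, adjusted p = 1.25e-05), and the adhesion molecule ICAM1 rose by 4.45. CIITA, the master activator of MHC class II genes, had 8.41 and 8.49 against 5.91 and 5.81 (2.58, adjusted p = 0.000731), but 2 of 15 class II genes were called in all, CIITA and RFX5, both of them regulators. RFX5 lost its call without any of the 4 arrays with epirubicin, with an adjusted p of up to 0.135. Among all genes 5.45% were called higher and 6.38% lower, together 11.8%, and the counts of class II and class I genes lie near that share. Of 19 class I presentation genes, TAP1, a peptide transporter, was called higher, and PSMB8 (−1.22) and PSMB9 (−1.03), subunits of the immunoproteasome, were called lower. Neither was called lower without either epirubicin duplicate or without epirubicin with LPS duplicate 1.

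Of 27 enzymes of itaconate, tricarboxylic acid and tryptophan metabolism, 3 were called higher and 2 lower (1 without either epirubicin duplicate or epirubicin with LPS duplicate 1). The shares of all genes were 5.45% higher and 6.38% lower. ACOD1, which makes itaconate, had 8.55 and 8.998 against 4.87 and 3.88 (4.40, adjusted p = 0.000259), and GCH1, of tetrahydrobiopterin synthesis, 8.90 and 9.002 against 4.36 and 3.61 (4.96). IDH1, the cytosolic isocitrate dehydrogenase, fell to 6.37 and 6.09, against 10.27 and 9.69 (−3.75, adjusted p = 0.000434). PTGS2, cyclooxygenase 2, had 10.72 and 10.79 against 4.42 and 5.36 (5.87). Of 24 redox genes 8 were called higher and 2 lower (1 without either epirubicin duplicate or epirubicin with LPS duplicate 2), with SOD2, the mitochondrial superoxide dismutase, at 17.97 and 17.93 against 10.80 and 10.38 (7.36) and GCLM, of glutathione synthesis, up by 4.17. Of 21 cholesterol synthesis genes 6 were called higher and 2 lower (none without epirubicin duplicate 1 or epirubicin with LPS duplicate 1, and 1 without epirubicin duplicate 2 or either LPS array). The rises included INSIG1 (4.99), which restrains the pathway, and SQLE (3.17). The glucose transporter SLC2A6 rose by 6.46 and HIF1A by 1.83, while EGLN1, the enzyme that marks HIF-1α for degradation, fell by 2.50 on the log2 scale. The 40 respiratory chain subunits and 26 ribosomal proteins had no call in either direction.

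Growth factors and adhesion molecules contributed further rises. Of 19 growth factors 7 were called higher and none lower, where 5.45% of all genes were called higher and 6.38% lower. NAMPT, an enzyme of NAD synthesis that is also secreted, had 12.67 and 12.47 with epirubicin and LPS against 7.50 and 6.92 with epirubicin (5.36, adjusted p = 2.83e-05), and VEGFA, the main angiogenic factor, had 14.27 and 14.21 against 10.45 and 10.54 (3.75, adjusted p = 2.79e-05). PDGFA, VEGFC, HBEGF and FGF2 rose by 4.50, 3.95, 3.70 and 2.86. Of 25 integrins and adhesion genes 8 were called higher and 2 lower (none without epirubicin duplicate 1, and 1 without any 1 of the other 3 arrays with epirubicin): ITGB8, an integrin that activates TGF-β, had 10.16 and 9.68 against 4.42 and 5.05 (5.18, adjusted p = 2.12e-05), CD44, the hyaluronan receptor, rose by 4.40 and VCAM1, a ligand for leukocyte integrins, by 3.55. THBS1, thrombospondin, rose by 3.13, PLAU, urokinase, by 2.01 and its receptor PLAUR by 1.86. Among 14 clotting genes 5 were called higher, and 3 without any 1 of the 4 arrays with epirubicin.

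Stress genes gave a mixed picture. Of 24 genes of the unfolded protein and integrated stress responses 6 were called higher and 2 lower (1 without either epirubicin duplicate, either LPS array or epirubicin with LPS duplicate 1), with DNAJB9 (2.89), an endoplasmic reticulum chaperone, DDIT4 (2.55), a brake on mTOR, and XBP1 (2.52), a transcription factor of the response, among the rises and the transcription factor CREB3L2 (−2.79) among the falls. Of 18 heat shock genes 2 were called higher, HSPA1A, an inducible HSP70, with 12.85 and 13.25 against 9.62 and 9.58 (3.44, adjusted p = 0.000237) and DNAJB6 (1.52). HSP90AB1, a constitutive chaperone, read 16.12 and 15.91 against 15.43 and 15.62 and was not called. OPTN, an autophagy receptor, rose by 3.22, and the lipid scramblase ATG9A of early autophagy fell by 1.85 on the log2 scale, in a list of 26 with 3 calls each way. Over all genes the shares were 5.45% higher and 6.38% lower.

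The inflammasome list had calls in both directions, with changes from −2.02 to 3.43. For comparison, 5.45% of all genes were called higher and 6.38% lower. Of 18 members, 2 were called higher and 2 lower, with a median of 0.10, and 1 was lower without either epirubicin duplicate or without epirubicin with LPS duplicate 1. NLRP3, the sensor that assembles the complex, had 11.35 and 11.15 with epirubicin and LPS against 10.41 and 10.62 with epirubicin and was not called (adjusted p = 0.0789), and CASP1, the protease that cleaves the IL-1β precursor, had 8.01 and 8.28 against 8.13 and 7.54 (adjusted p = 0.558). PYCARD, the adaptor ASC, fell to 10.89 and 11.42, against 13.22 and 13.13 (−2.02, adjusted p = 0.00188). CASP5, a cytosolic LPS sensor, rose by 2.82.

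Of 28 scavenger receptors and C-type lectins, 2 were called higher (1 without either epirubicin duplicate or epirubicin with LPS duplicate 2) and 2 lower (1 without epirubicin duplicate 1 or without either epirubicin with LPS array or either untreated array). Of 26 genes of LXR and PPAR targets and lipid handling, 1 was called higher (2 without epirubicin duplicate 1 or epirubicin with LPS duplicate 2) and 5 lower (2 without either epirubicin duplicate or epirubicin with LPS duplicate 1, and 3 without its duplicate 2). Among all genes 5.45% were called higher and 6.38% lower, and the counts of scavenger receptors and lectins lie near these shares. MERTK, the receptor for engulfing dead cells, had 10.55 and 10.62 with epirubicin and LPS against 14.69 and 14.52 with epirubicin (−4.02, adjusted p = 2.08e-05). The transcription factor MEF2C had 10.03 and 10.37 against 13.11 and 13.35 (−3.03) and the TGF-β receptor TGFBR2 7.97 and 7.89 against 10.999 and 11.35 (−3.25). PDK4, a PPAR target that spares glucose, had 3.32 and 2.90 against 7.50 and 6.42 (−3.84, adjusted p = 0.000817). Of 44 myeloid transcription factors 16 were called higher and 10 lower, with BHLHE40 (3.99), BCL6 (3.80) and IRF8 (3.12) among the rises. Without 1 of the 4 arrays with epirubicin the rises numbered 10 to 12, the lowest without epirubicin with LPS duplicate 1, and the falls 6 in each case. The histone demethylase KDM6B rose by 5.08, and the histone methyltransferase EHMT2 fell by 2.72 on the log2 scale.

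Survival genes rose as well. Of 32 regulators of survival and death, 15 were called higher and 1 lower (none without epirubicin duplicate 2 and 3 without epirubicin with LPS duplicate 1), with a median of 1.01, and 14 to 16 were called higher when 1 array was left out. BCL2A1, an NFκB-induced relative of BCL2, had 14.76 and 14.86 with epirubicin and LPS against 9.08 and 9.65 with epirubicin (5.45, adjusted p = 2.88e-05), and BIRC3, an inhibitor of apoptosis, had 9.89 and 10.21 against 3.87 and 4.73 (5.75). Targets of p53, the factor that anthracyclines are known to activate, went both ways, with 9 of 26 called higher and 4 lower. For both lists the shares over all genes were 5.45% higher and 6.38% lower. GADD45B (3.52), PLK2 (3.66), AEN (3.38) and PMAIP1 (3.38) rose, and SESN1, a stress-induced sestrin, fell to 7.65 and 6.62, against 11.43 and 11.37 (−4.27, adjusted p = 0.000121), as did RRM2B (−2.78). The 9 calls were 5 without epirubicin duplicate 2, without epirubicin with LPS duplicate 1 and without its duplicate 2, and 6 without epirubicin duplicate 1, and the 4 lower calls were 2 without epirubicin with LPS duplicate 2.

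Proliferation genes ran downwards without exception among the calls. Of 44 S phase genes 17 were called lower and none higher, with a median of −1.03, and of 35 G2 and mitosis genes 15 were lower and none higher, with a median of −1.12, against 6.38% lower and a median of −0.04 for all genes. PCNA, the sliding clamp of DNA polymerases, had 8.33 and 7.98 with epirubicin and LPS against 10.32 and 10.74 with epirubicin (−2.37 ± 0.28, adjusted p = 0.000951). PRIM1, a primase subunit, had 5.58 and 5.85 against 8.79 and 8.74 (−3.05, adjusted p = 0.000643), and the kinase PLK1 6.50 and 5.85 against 8.31 and 8.53 (−2.24, adjusted p = 0.00289). FOXM1, the transcription factor of the mitotic genes, fell by 2.09 on the log2 scale. The medians of both lists lie near the 2-fold limit, and the counts depended on single arrays: S phase calls numbered 8 without epirubicin duplicate 2, 8 without epirubicin with LPS duplicate 2 and 11 without its duplicate 1, and G2 and mitosis calls 4 without epirubicin duplicate 1, 6 without epirubicin duplicate 2 and 7 without epirubicin with LPS duplicate 1. Of 50 replication-dependent histone genes 9 were called lower and none higher, with 4 without either epirubicin duplicate, 3 without epirubicin with LPS duplicate 1 and 6 without its duplicate 2. The E2F-like letters TTTCCCGC were in 10 of 40 S phase promoters (25%), against 2.22% of measured genes. Here too the share describes the list and not the LPS response.

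**Figure D3:**
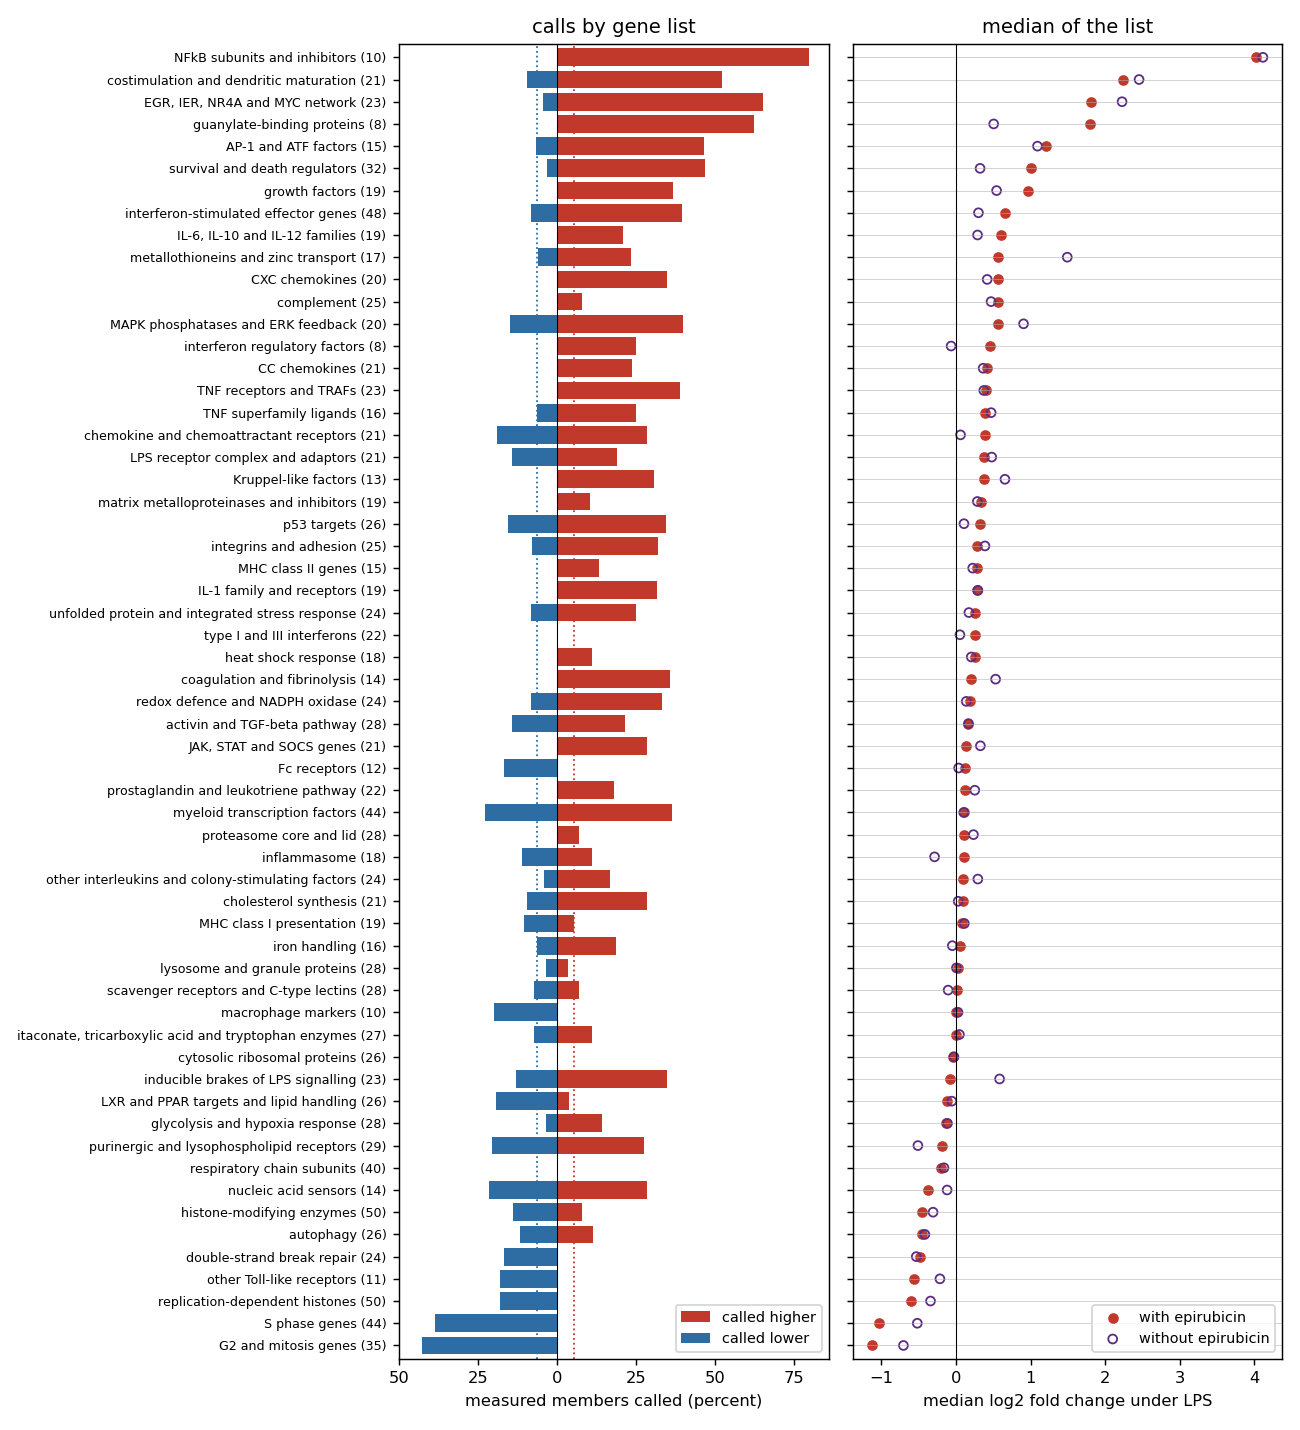
Gene lists under LPS in epirubicin-treated cells, ordered by their median change, with the number of measured members in brackets. Left panel, percent of members called higher (red, to the right) and lower (blue, to the left), with the shares of all genes, 5.45% and 6.38%, as dotted lines. Right panel, the list's median log2 fold change with epirubicin (filled) and without epirubicin (open). NFκB genes stand at the top with 8 of 10 called higher, and S phase, G2 and mitosis genes at the bottom with calls in the lower direction alone.

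To see where the response differs from that of cells without the drug, the same LPS contrast was taken on the LPS and untreated arrays, which share no array with the first. There 1045 probe sets were called higher (5.0%) and 1189 lower (5.69%). Of the probe sets called higher with epirubicin, 770 were also called higher without it, which is 72.0% of the first list and 73.7% of the second. For falls the number was 746, or 60% and 62.7%. Of 299 rises called with epirubicin alone, 273 had a change above 0 without it, and of 497 such falls 461 had a change below 0. A single probe set, LINC01359, was called in opposite directions, at 5.04 and 5.002 with epirubicin and LPS, 3.36 and 3.79 with epirubicin, 3.06 and 2.87 with LPS and 4.30 and 4.78 untreated, all at low levels. Its rise with epirubicin had an adjusted p of up to 0.0764 when 1 array was left out, and it was singled out after its values were seen. The changes with and without epirubicin correlated at r = 0.82 across genes, a description in which genes are not independent replicates and all 8 arrays were normalized together.

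**Figure D4:**
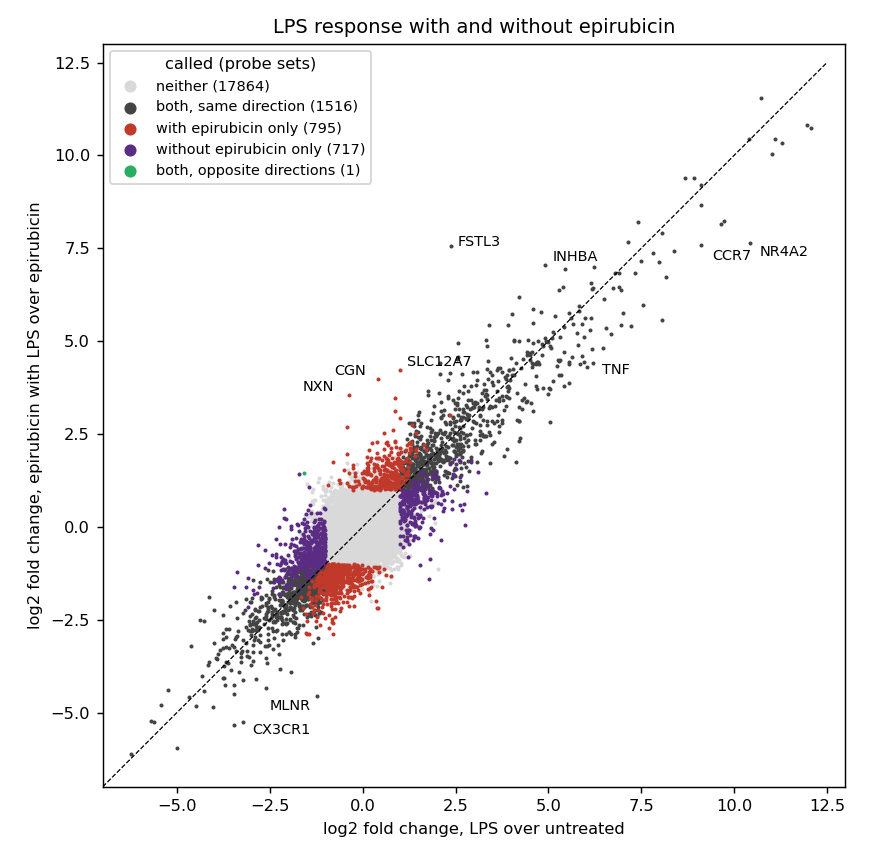
Log2 fold change under LPS with epirubicin (y axis, epirubicin with LPS over epirubicin) against that without epirubicin (x axis, LPS over untreated), 1 point per probe set, coloured by the calls, with the line of equal change dashed. Most strongly changed probe sets lie along the line, and FSTL3 stands far above it at 7.56 against 2.37.

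The difference of the LPS effects was tested in the same model, and 1 of 20893 probe sets passed (0.00479%), while 1542 (7.38%) had an unadjusted p under 0.05. That gene was FSTL3, a secreted glycoprotein that binds and neutralizes activins. It read 12.18 and 12.58 with epirubicin and LPS, 4.57 and 5.07 with epirubicin, 7.44 and 6.94 with LPS and 4.71 and 4.93 untreated, so that LPS raised it by 7.56 with epirubicin and by 2.37 without, a difference of 5.19 ± 0.42 (adjusted p = 0.029). The epirubicin with LPS arrays are far above the LPS arrays, and the arrays without LPS overlap. Its adjusted p exceeded 0.05 whichever of the 8 arrays was left out, with up to 0.362, while the size of the difference stayed between 4.94 and 5.44. INHBA, the βA subunit of activin A and so a ligand of FSTL3, read 11.63 and 11.34 with epirubicin and LPS, 4.16 and 4.69 with epirubicin, 9.68 and 9.90 with LPS and 4.97 and 4.79 untreated, with changes of 7.06 and 4.92. Its difference of 2.14 ± 0.38 did not pass (adjusted p = 0.444). On the activin and TGF-β list, 6 of 28 members were called higher and 4 lower in epirubicin-treated cells, against 5.45% and 6.38% of all genes.

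No other difference passed, so the next genes are given as values only, chosen after their values were seen as those with the smallest p for the difference. CGN, the tight junction protein cingulin, read 6.98 and 6.74 with epirubicin and LPS, 2.64 and 3.11 with epirubicin, 3.77 and 3.05 with LPS and 2.95 and 3.07 untreated, so that it was above background in 1 of the 4 conditions only (difference 3.58, adjusted p = 0.141). SLC12A7, a potassium chloride cotransporter, rose by 4.23 with epirubicin and changed by 0.99 without (3.24, adjusted p = 0.141). The corresponding changes were 3.47 and 0.87 for the ubiquitin ligase TRIM47, 2.68 and −0.43 for the junctional protein JCAD, 3.56 and −0.36 for nucleoredoxin, NXN, and −4.55 and −1.24 for MLNR. For MLNR the epirubicin arrays read 8.29 and 8.80 and the untreated arrays 5.48 and 5.92, and after LPS the epirubicin with LPS arrays read 4.12 and 3.87 and the LPS arrays 4.56 and 4.36, so that the groups were further apart before LPS than after it.

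Lists were set side by side in the same way, again without a test of the list. Of 48 interferon-stimulated effector genes, 13 had an unadjusted p under 0.05 for the difference, all 13 in the direction of the higher change with epirubicin, and 5 of 8 guanylate-binding proteins did so in that direction and 1 in the other, where 7.22% of all genes had such a p. IFIT1 changed by 4.88 with epirubicin and 3.34 without, GBP1 by 4.94 and 2.58, and ISG20, a nuclease, by 2.93 and 0.99, where IFIT1 was near background before LPS both with epirubicin and in untreated cells. Among S phase genes the number was 11 of 44, all with the lower change with epirubicin, for example PCNA with −2.37 and −1.43. Immediate early factors leaned to smaller rises with the drug, with 6 of 23 EGR, IER, NR4A and MYC genes and 5 of 15 AP-1 genes at such a p, all in the direction of the lower change with epirubicin. NR4A2 rose by 7.64 with epirubicin and 10.44 without, and its arrays before LPS read 5.64 and 6.53 with epirubicin and 4.26 and 3.10 untreated, so that the groups started from different levels and the untreated mean was near background. DUSP1 rose by 6.73 and 8.17, TNF by 4.41 and 6.21, and CCR7 by 7.58 and 9.11, and the untreated means of TNF and CCR7 were near background. DUSP1 also started from different levels, with means before LPS of 7.96 with epirubicin and 6.96 in untreated cells. After LPS its means were 14.70 with epirubicin and 15.12 without. The mean level of TNF after LPS was 10.52 with epirubicin and 10.95 without, and before LPS 6.11 with epirubicin and 4.74 in untreated cells. After LPS the TNF arrays overlapped, at 10.63 and 10.42 with epirubicin and 11.30 and 10.61 without. IL1RN, in contrast, rose by 4.58 and 2.57, and NFκB genes had a median difference of 0.01. None of these differences passed the adjustment over all probe sets.

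**Figure D5:**
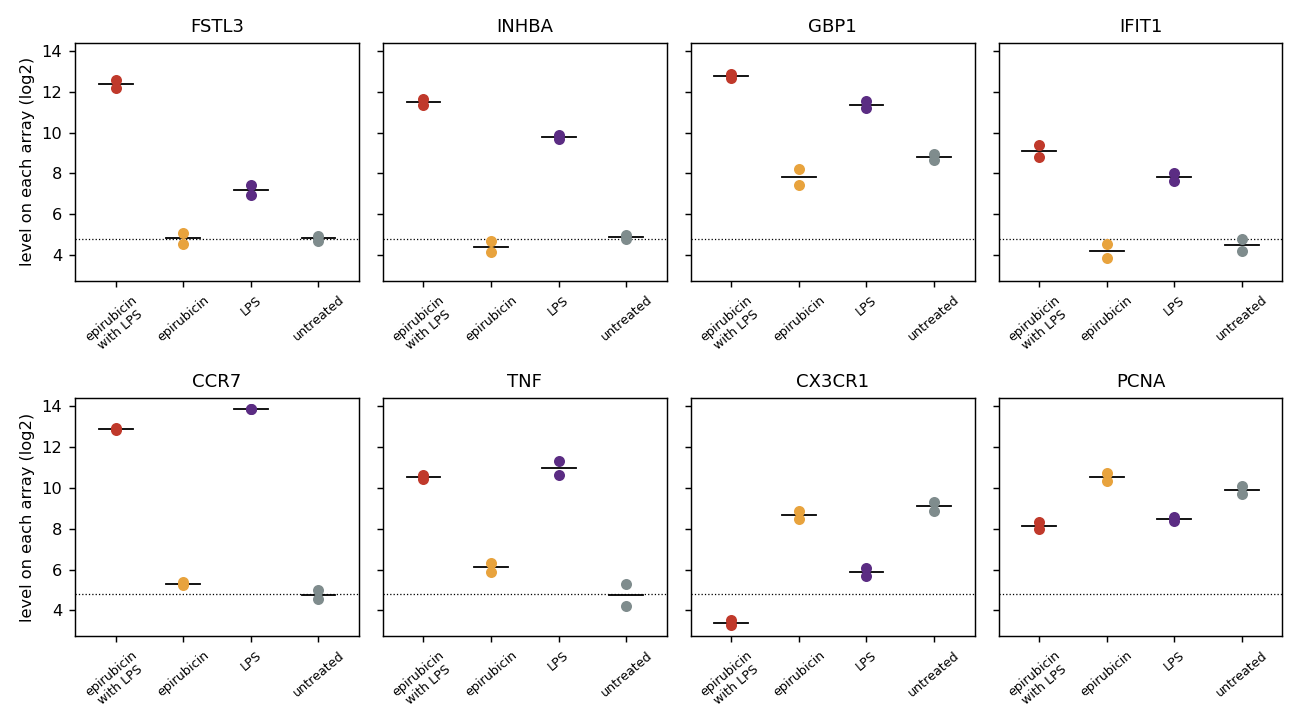
Log2 level on each array (y axis, 2 points per condition, bar at the mean) of 8 genes in epirubicin with LPS, epirubicin, LPS and untreated cells, with the near-background level dotted. FSTL3, INHBA, GBP1 and IFIT1 are highest with epirubicin and LPS, CCR7 is highest with LPS alone, and CX3CR1 and PCNA are lowest with epirubicin and LPS. The mean of TNF is highest with LPS alone, but its LPS arrays overlap those with epirubicin and LPS.

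The study's core LPS genes were chosen on the arrays without epirubicin, so their direction here is not independent evidence and a smaller change on other arrays is partly built into the choice. Of those among the probe sets tested, all 84 induced and all 62 reduced ones were called in epirubicin-treated cells in the same direction, where 5.12% and 5.95% of all probe sets were. The induced core had a median change of 5.59 with epirubicin and 6.16 without, and the reduced core −3.17 and −3.43. The change was smaller with epirubicin in 66 of 84 induced and 48 of 62 reduced core probe sets, and no single difference was called. At an unadjusted p under 0.05 (limma), 32 induced core probe sets had the smaller rise with epirubicin and 2 the larger. In the reduced core 10 had the smaller fall and 3 the larger, where 7.38% of all probe sets had such a p in either direction. Median levels after LPS were 12.88 with epirubicin and LPS and 13.17 with LPS for the induced core, and 7.93 and 8.10 for the reduced core. Before LPS they were 6.10 with epirubicin and 5.54 in untreated cells for the induced core, and 11.36 and 11.51 for the reduced core.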

How the data were processed

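Total RNA of 8 samples of PMA-differentiated THP-1 cells was labelled and hybridized to Clariom S HT arrays, 2 per condition. The authors deposited log2 expression values, background-corrected, normalized over the arrays and summarized per probe set by RMA per the labels, with a signal space transformation per the methods; the software version and annotation build are not given in the sources used here. Arrays were assigned to conditions by their titles. Of 24351 rows, 2903 control rows and 555 unmapped rows were left out and 20893 were tested.

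The deposited log2 values were fitted with limma 3.58.1 (R 4.3.3), 1 mean per condition over all 8 arrays (4 residual and 4.25 prior degrees of freedom), for LPS with epirubicin, LPS without epirubicin and the difference of both. Calls required at least 2-fold and a p not above 0.05 after Benjamini-Hochberg adjustment. The number of arrays, 2 per condition, limits the precision. The script was tested on simulated data with planted changes. Gene names came from the platform annotation (17705 probe sets) and the study's gene tables (98), and 3090 had no single name. Each gene is represented by its probe set of highest mean. The 64 gene lists are described by counts and medians without a set test.

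Named genes are the 15 largest called rises and falls with a mean of at least 6 in the higher condition, up to 6 members per list with the smallest p, all members of lists of up to 14 genes, and genes named in the article. The members and lists were chosen with earlier results of these data known. Promoter sequences are those of RefSeq, GRCh38.p14. Alternatives were a fit on the 4 arrays with epirubicin, a trended robust prior, the duplicate number as a block, quantile normalization, median centring, a level filter, limma's treat test, the study's threshold of an unadjusted p of at most 0.01, inclusion of the unmapped rows (chosen after seeing the data), and leaving out each array.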

Additional observations from a re-analysis of the deposited data

Results flagged for a closer look

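FSTL3, the secreted activin antagonist, stands out because its LPS effect differed with and without epirubicin by a test of the difference itself, at 5.19 ± 0.42 on the log2 scale (limma, adjusted p = 0.029). LPS raised it by 7.56 with epirubicin and by 2.37 without. The difference lay between 4.94 and 5.44 when 1 of the 8 arrays was left out, and it kept its call in none of these fits. With the duplicate number as a block in limma it was not called either (adjusted p = 0.105).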

How the results depend on the processing

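The counts of LPS rises and falls with epirubicin stayed within 1.5 times of 1069 and 1243 in the 4-array fit (892 and 958), under quantile normalization (1130 and 1141), median centring (1180 and 1125) and the study's threshold (1155 and 1389). limma's treat test against a 2-fold change called 393 and 193. Leaving out 1 array gave 732 to 1045 rises and 673 to 1190 falls, the lowest without epirubicin duplicate 1. The difference of LPS effects depended most on the settings: 1 probe set higher and 0 lower became 21 and 22 with a trended robust prior, 154 and 188 at the study's threshold, and 0 higher in each fit without 1 array. Duplicate numbers did not pair the arrays, since deviations correlated between −0.009 and 0.021, and with the duplicate number as a block 1036 rises, 1186 falls and 0 differences were called. No named gene reversed. The duplicates per condition, whose cultures are not said to be separate, limit all calls, and differences of LPS effects most.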
